A study of Mus musculus with 88 samples.

Results

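Csf1r, the receptor for colony-stimulating factor 1, and its ligands Csf1 and Il34 were followed through the frontal cortex transcriptome of mice with and without Trem2, human APOE4 or APOE3, and APP transgenes. The members were taken by symbol, by a rule that uses no measured value, and are 3 of the 14451 genes in the expression table. All 3 entered the tests, which were run on the 14086 genes that averaged 1 CPM or more (CPM, read counts scaled by the authors to a common library size).

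The series holds 88 mice of 8 genotypes with an average age of 6.5 months, each giving a single mRNA-seq library from a separate piece of frontal cortex. In 4 genotypes the mice carried the APP/PSEN1dE9 transgenes, a human amyloid precursor protein with the Swedish mutation and a human presenilin 1 lacking exon 9, which together produce amyloid plaques. These were APP/E4/Trem2ko (n = 16), APP/E4 (n = 14), APP/E3/Trem2ko (n = 14) and APP/E3 (n = 14). Their littermates without the APP transgenes were E4/Trem2ko (n = 8), E4 (n = 6), E3/Trem2ko (n = 8) and E3 (n = 8). Every mouse was on a C57BL/6 background and carried human APOE3 or APOE4 on both copies in place of mouse Apoe by targeted replacement. No group therefore carried mouse Apoe, and Trem2ko denotes a homozygous Trem2 deletion in all cells. Each genotype held females and males in equal number except E4, with 4 females and 2 males.

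CSF1R is a receptor tyrosine kinase of the cell surface. In the adult brain it is found mainly on microglia, which depend on its signal for survival and renewal. Its ligands differ in where they are made: IL-34 comes chiefly from forebrain neurons, and CSF1 from glia and from neurons of other regions. Trem2 encodes a microglial receptor that signals through the adaptor TYROBP, which also takes part in CSF1R signalling.

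Recovered reads ranged from 41.3 to 95.5 M a library. Trem2 fell in every Trem2ko group and did not overlap between any Trem2ko group and its counterpart, with means ± SD of 2.48 ± 1.06 CPM in APP/E4/Trem2ko against 12.95 ± 3.54 CPM in APP/E4, and 1.98 ± 0.80 CPM in E3/Trem2ko against 13.20 ± 1.76 CPM in E3. Markers of cortical neurons and of microglia were present in every group. In 16 libraries the summed level of 10 genes of striatal neurons reached 1000 CPM, and these were unevenly spread: 4 of APP/E4/Trem2ko, 3 of APP/E4, 1 of APP/E3/Trem2ko, 2 of APP/E3, none of E4/Trem2ko, 3 of E4, none of E3/Trem2ko and 3 of E3. Transcripts of keratins, the filament proteins of stratified epithelia, reached 1 CPM in sum in 31 of 44 APOE4 libraries, called keratin libraries below, and in 0 of 44 APOE3 libraries. Several values are also given without the striatal or the keratin libraries.

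Over all 88 mice Csf1r averaged 103 ± 17.8 CPM (SD), Il34 52.0 ± 9.06 CPM and Csf1 24.5 ± 3.13 CPM. Per kilobase of exon, the scale on which genes can be compared, Il34 averaged 28.4 CPM, Csf1r 21.1 CPM and Csf1 5.20 CPM. Csf1r lies on chromosome 18 (GRCm38, 61100598 to 61132149, plus strand), Csf1 on chromosome 3 (107741048 to 107760469, minus strand) and Il34 on chromosome 8 (110741829 to 110805924, minus strand). By these positions, from the GENCODE annotation, the 3' end of Csf1r overlaps Hmgxb3 on the opposite strand, and Il34 overlaps the antisense genes Gm15894 and Gm15895. By RefSeq, Csf1r ends at 61131139, short of the lower end of Hmgxb3 at 61131277 in GENCODE. Neither the annotation used for counting nor any use of strand is given in the sources used here. Reads from any shared stretch therefore cannot be told apart.

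**Figure D1:**
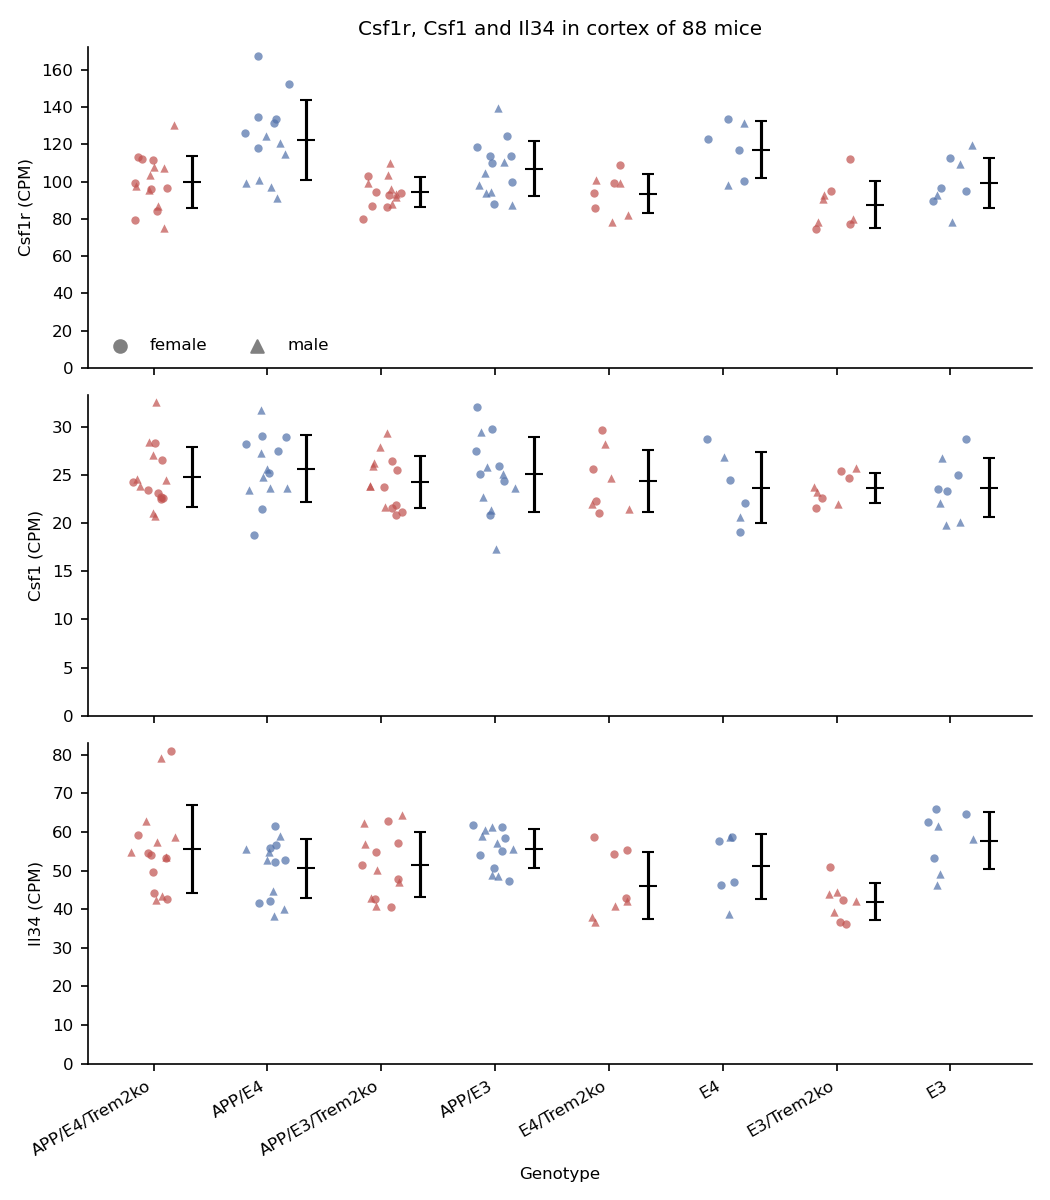
Level of Csf1r, Csf1 and Il34 in CPM (vertical axes) in each mouse of the 8 genotypes (horizontal axis). Circles are females, triangles males, red Trem2ko and blue intact Trem2, with a black bar for the mean ± SD; Csf1r was highest in APP/E4 at 122.3 ± 21.5 CPM, Il34 was lowest in E3/Trem2ko at 42.0 ± 4.74 CPM, and Csf1 stayed between 17.3 and 32.5 CPM in every mouse.

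Csf1r was lower without Trem2 in APP/E4 mice. Its lowest, median and highest levels were 74.9, 98.6 and 130.2 CPM in APP/E4/Trem2ko, against 91.2, 122.5 and 167.6 CPM in APP/E4. The groups overlapped, but 15 of 16 APP/E4/Trem2ko mice lay below the APP/E4 median. The log2 fold change was -0.29 (SE 0.070, 95% interval -0.43 to -0.15) and passed the test across all genes (limma, Benjamini-Hochberg adjusted p = 0.00525). With only these genotypes in the fit the value was the same and the call was lost (adjusted p = 0.0705). The mean level fell by 18.4% relative to APP/E4. In this comparison 2.53% of all genes were called lower and 13.8% were called in either direction (1588 higher and 356 lower by limma, 913 and 642 by edgeR). Because the libraries are of bulk tissue, fewer microglia and less Csf1r RNA per cell cannot be told apart.

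The other Trem2ko groups had lower Csf1r means too, but none passed the adjusted threshold on its own. In E4/Trem2ko the lowest, median and highest levels were 78.3, 96.6 and 108.7 CPM, against 98.1, 119.9 and 133.6 CPM in E4. All 8 E4/Trem2ko mice lay below the E4 median and 4 below its lowest mouse, and the log2 difference of -0.31 (-0.52 to -0.10) had an adjusted p of 0.630 (limma), where 0.0994% of genes were called. Without the striatal libraries, which include 3 of the 6 E4 mice, that difference was -0.16 (-0.41 to 0.09, adjusted p = 0.9996). In APP/E3/Trem2ko the levels were 79.8, 93.7 and 110.2 CPM, against 87.4, 107.5 and 139.5 CPM in APP/E3. Here 13 of 14 APP/E3/Trem2ko mice lay below the APP/E3 median, with a log2 difference of -0.17 (-0.32 to -0.03, adjusted p = 0.633) and 0.319% of genes called. In E3/Trem2ko the levels were 74.8, 85.1 and 112.4 CPM, against 78.3, 95.8 and 119.9 CPM in E3. The E3 groups covered nearly the same range, but 7 of 8 E3/Trem2ko mice lay below the E3 median and 3 below its lowest mouse. The log2 difference was -0.18 (-0.37 to 0.01, adjusted p = 0.260 by limma), where 2.92% of genes were called. Without the striatal libraries it was -0.12 (-0.33 to 0.09, adjusted p = 0.676). The sign of this E3 difference was reversed, with no call, in another setting.

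Averaged over the 4 backgrounds, Csf1r fell by 0.24 on the log2 scale in Trem2ko mice (SE 0.043, 95% interval -0.32 to -0.15, adjusted p = 0.000158 by limma). That is, it fell by 15.2%. In this average 2.91% of genes were called lower and 5.79% in either direction. The drop did not differ detectably between isoforms: the difference between the Trem2 effects in APOE4 and APOE3 mice was -0.11 in APP mice and -0.13 in mice without APP (adjusted p = 0.634 and 0.878 by limma), where 0.369% and 0.0142% of genes were called.

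The fall in Csf1r stood beside a lower level of microglial markers. Of 15 microglial markers, Trem2 itself among them, 11 were called lower and 0 higher in the average over backgrounds, with a median log2 change of -0.22, against 0.01 for all genes. Of all genes 2.91% were called lower and 5.79% in either direction in that average. Their summed level had a lowest, median and highest value of 270, 375 and 587 CPM in APP/E4/Trem2ko, against 320, 420 and 580 CPM in APP/E4. Striatal marker genes were also lower in Trem2ko, with 4 of 10 called and a median of -0.81. Without the 16 striatal libraries, a choice made after seeing the data, the average Csf1r change was -0.18 (adjusted p = 0.0690 by limma), and that in the APP/E4 pair was -0.26 (adjusted p = 0.0174). Without the keratin libraries it was -0.22 on average, a value for which 1 E4/Trem2ko and 2 E4 mice were left. In the APP/E4 pair it was then -0.21 (adjusted p = 0.273 by limma), with 6 APP/E4/Trem2ko and 4 APP/E4 mice left. The part of these libraries in the result was not tested further.

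Csf1r was higher with APOE4 than with APOE3 in APP mice with intact Trem2. The lowest, median and highest levels were those given above, with a mean of 122.3 ± 21.5 CPM in APP/E4 against 106.9 ± 14.7 CPM in APP/E3. Of 14 APP/E4 mice, 10 lay above the APP/E3 median, and the log2 fold change of 0.19 (0.04 to 0.33) passed the test (adjusted p = 0.0391 by limma). That comparison called 10.9% of all genes higher and 33.6% in either direction (1530 higher and 3199 lower by limma, 2330 and 2423 by edgeR). The APP/E4 mice are the same ones against which APP/E4/Trem2ko was set. This call was lost on leaving out any of 12 mice one at a time, with log2 values of 0.15 to 0.22.

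In mice without APP transgenes, Csf1r averaged 117.2 ± 15.2 CPM in E4 against 99.3 ± 13.6 CPM in E3. All 6 E4 mice lay above the E3 median, and the log2 difference of 0.23 (0.02 to 0.43) had an adjusted p of 0.170 (limma), with 7.72% of genes called (242 higher and 846 lower by limma, 392 and 477 by edgeR). Without the striatal libraries, 3 from each of these groups, it was 0.14 (-0.13 to 0.42, adjusted p = 0.842). Between Trem2ko groups the isoforms lay closer, with log2 differences of 0.07 for APP/E4/Trem2ko over APP/E3/Trem2ko (adjusted p = 0.605, 4.46% of genes called) and 0.10 for E4/Trem2ko over E3/Trem2ko (adjusted p = 0.567, 6.21% of genes called). The average over the 4 backgrounds was 0.15 (0.06 to 0.23, adjusted p = 0.00452 by limma), or 10.7% higher in APOE4 mice. That average called 12.6% of all genes higher and 40.4% in either direction (1774 higher and 3911 lower by limma, 2874 and 2845 by edgeR), so a call was common. Without the keratin libraries, all of which are APOE4, it was 0.12, with 1 E4/Trem2ko and 2 E4 mice left. The APP/E4 to APP/E3 value was then 0.11 (adjusted p = 0.546 by limma). Without the striatal libraries the average and the APP/E4 to APP/E3 value were 0.11 (adjusted p = 0.104) and 0.13 (adjusted p = 0.184).

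Csf1r did not change detectably with the APP transgenes. Its log2 differences between APP groups and their littermates were 0.06 to 0.11 in the 4 backgrounds and none was called. Of all genes, 0.149% were called in APP/E3/Trem2ko over E3/Trem2ko, 0.0781% in APP/E4/Trem2ko over E4/Trem2ko, 0.0213% in APP/E3 over E3 and 0.0142% in APP/E4 over E4. For Csf1r the average was 0.09 (0.01 to 0.18, adjusted p = 0.251 by limma), where 1.68% of genes were called. In order of level, from high to low, Csf1r ran APP/E4, E4, APP/E3, APP/E4/Trem2ko, E3, APP/E3/Trem2ko, E4/Trem2ko and E3/Trem2ko. Each step between neighbours was smaller than the SD of either neighbour.

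**Figure D2:**
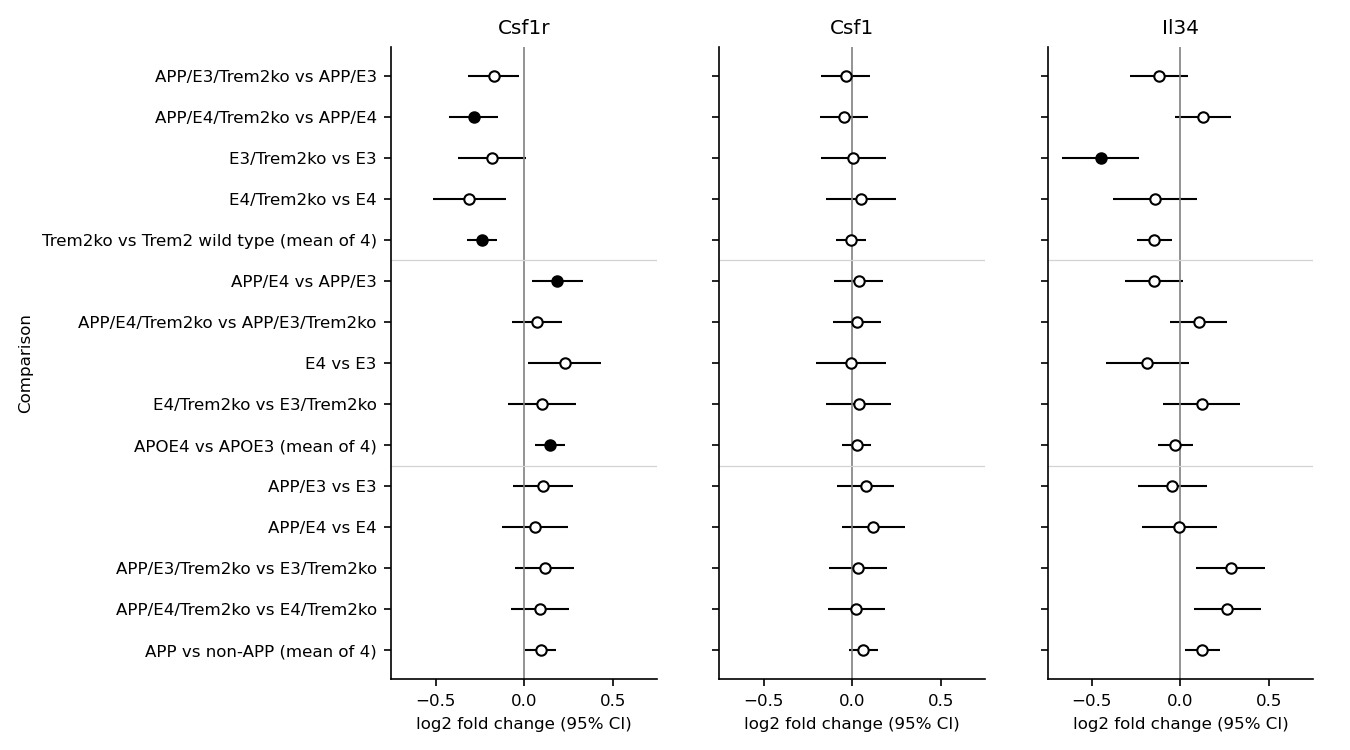
Log2 fold change of each member with its 95% interval (horizontal axis) in the pairwise and averaged comparisons (rows), fitted with limma. Filled points passed the adjusted threshold of 0.05; for Csf1r these were APP/E4/Trem2ko over APP/E4 (-0.29), APP/E4 over APP/E3 (0.19) and the Trem2 and APOE averages (-0.24 and 0.15), for Il34 E3/Trem2ko over E3 (-0.45), and for Csf1 none.

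Csf1r was not detectably different between the sexes over all mice, with a log2 difference of 0.07 between females and males (-0.01 to 0.15, adjusted p = 0.900 by limma) where 0.135% of genes were called. A look within genotypes, taken after seeing the data, found the highest Csf1r levels of APP/E4 in females. APP/E4 females ran from 117.9 to 167.6 CPM (137.7 ± 16.9, SD, n = 7), against 91.2 to 124.5 CPM in APP/E4 males (107.0 ± 12.9, n = 7). The log2 difference of 0.36 had an adjusted p of 0.152 (limma), where 0.163% of genes were called. Trem2 was likewise higher in APP/E4 females than in APP/E4 males, by 0.56 on the log2 scale (adjusted p = 0.329 by limma). In APP/E4/Trem2ko the sexes were alike in mean Csf1r, at 99.0 ± 12.8 CPM in females and 100.5 ± 16.3 CPM in males. The Trem2 effect on Csf1r in APP/E4 was -0.48 in females alone (adjusted p = 0.0029) and -0.10 in males alone (adjusted p = 0.628). The difference between those effects, -0.38 (-0.65 to -0.11), did not pass adjustment (adjusted p = 0.998), so the sexes were not shown to differ. In females alone APP/E4 exceeded APP/E3 by 0.33 (adjusted p = 0.0337), and in males alone by 0.05 (adjusted p = 0.799).

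**Figure D3:**
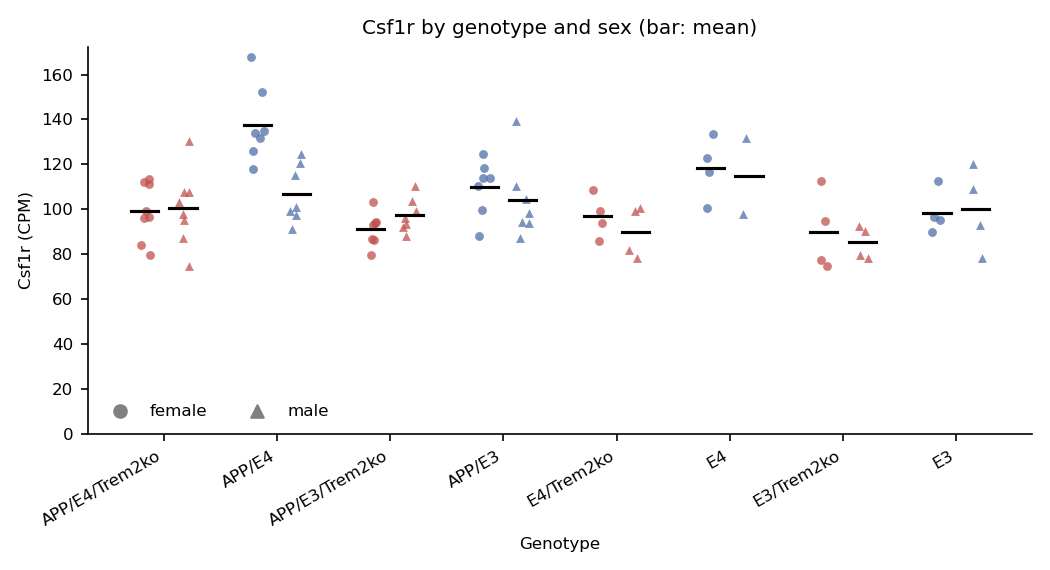
Csf1r in CPM (vertical axis) in females and males of each genotype (horizontal axis), 1 point a mouse (circles females, triangles males, red Trem2ko, blue intact Trem2), with a bar for the mean. APP/E4 females averaged 137.7 CPM against 107.0 CPM in APP/E4 males, while APP/E4/Trem2ko females averaged 99.0 CPM against 100.5 CPM in APP/E4/Trem2ko males.

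To ask whether Csf1r moved with the other microglial transcripts, its log2 level was set against the mean log2 level of the 14 markers other than Trem2. Relative to them the difference was -0.15 for APP/E4/Trem2ko over APP/E4 (permutation test, adjusted p = 0.0205 over 12 pairs) and 0.17 for E3/Trem2ko over E3 (exact permutation test, adjusted p = 0.0205). It was higher by 0.22 in APP/E4 than in APP/E3 (permutation test, adjusted p = 0.00024) and by 0.32 in E4 than in E3 (exact permutation test, adjusted p = 0.0120). The other 8 pairs did not pass. In the E3 pair the 15 markers, Trem2 included, had a median of -0.38, with 5 called lower, the deleted Trem2 among them. Of all genes 1.65% were called lower in that pair. All 4 calls were lost when the median of the markers replaced their mean, with adjusted p from 0.0739 to 0.296. Tyrobp is 1 of the 14 markers in that mean, with a log2 change of -0.72 in APP/E4 relative to APP/E3 (adjusted p = 0.0005 by limma). Its part in these differences was not tested.

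**Figure D4:**
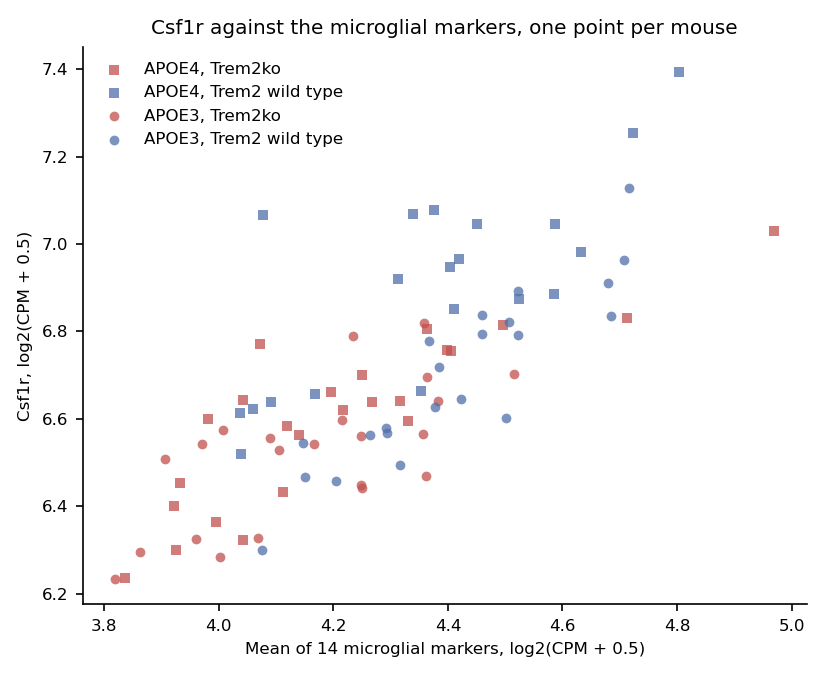
Log2 level of Csf1r (vertical axis) against the mean log2 level of 14 microglial markers (horizontal axis), 1 point a mouse (n = 88), with squares for APOE4, circles for APOE3, red for Trem2ko and blue for intact Trem2. The points rise together (Pearson r = 0.78, a description over mice that share genotypes).

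Over the 88 mice the genes most like Csf1r in log2 level were Cx3cr1, the microglial fractalkine receptor (Pearson r = 0.87), Nckap1l, a haematopoietic actin regulator (0.86), Vsir, the immune checkpoint receptor VISTA (0.86), Itgam, the integrin chain CD11b (0.85), and Mpeg1, a macrophage pore-forming protein (0.85). With genotype and sex means removed, 4 of these 5 were still in the top 5, and Inpp5d took the place of Vsir. The mice share genotypes and a tissue, so these values are descriptions. Csf1r correlated weakly with its ligands across mice, with r of 0.18 for Csf1 and 0.36 for Il34.

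Spi1, the transcription factor PU.1 that drives Csf1r in macrophages, also fell in Trem2ko mice, as given further on. The core of its binding site, GAGGAA on one strand or TTCCTC on the other, was therefore looked for in the 250 bases upstream of the start of these genes (RefSeq, GRCm38.p6). Of the members only Csf1 was searched: Il34 had no window among the sequences available, and that of Csf1r itself was not searched. Of the 5 genes most like Csf1r, 4 had a window. One of those, Itgam, held the core, on each strand. Of 32851 promoter windows of the same length, 7639 (23.3%) held it. The Itgam window (chr7:128062390-128062639, plus strand) is printed because it carries the match and that of Csf1 (chr3:107760470-107760719, minus strand) because it is the member's own. Capitals mark the core, 5' to 3'.
Itgam: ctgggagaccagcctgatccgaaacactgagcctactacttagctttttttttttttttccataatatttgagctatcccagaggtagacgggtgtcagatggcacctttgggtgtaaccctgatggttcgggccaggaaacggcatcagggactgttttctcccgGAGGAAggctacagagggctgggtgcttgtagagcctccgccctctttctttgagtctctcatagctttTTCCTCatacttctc
Csf1: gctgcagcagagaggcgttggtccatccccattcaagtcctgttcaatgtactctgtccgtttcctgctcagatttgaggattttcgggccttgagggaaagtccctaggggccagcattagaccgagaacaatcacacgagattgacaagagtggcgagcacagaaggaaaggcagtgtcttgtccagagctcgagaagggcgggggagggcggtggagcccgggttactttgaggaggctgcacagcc
The Csf1 window held no match. A match is a run of letters and not a measured binding site.

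Csf1, which encodes colony-stimulating factor 1, did not change detectably in any comparison. It was called in 0 of 20 comparisons by limma, edgeR or DESeq2, and in 0 of 20 at an unadjusted p under 0.05 by each of these. Its lowest, median and highest levels were 20.7, 24.03 and 32.5 CPM in APP/E4/Trem2ko against 18.7, 25.4 and 31.8 CPM in APP/E4. In APP/E3/Trem2ko they were 20.8, 23.8 and 29.3 CPM, against 17.3, 25.1 and 32.04 CPM in APP/E3. The ranges of all groups overlapped widely. Without the APP transgenes they were 21.1, 23.5 and 29.7 CPM in E4/Trem2ko against 19.1, 23.3 and 28.7 CPM in E4. In E3/Trem2ko they were 21.6, 23.5 and 25.7 CPM, against 19.8, 23.4 and 28.7 CPM in E3. Averaged over backgrounds the log2 differences were -0.01 for Trem2ko (-0.09 to 0.07), 0.02 for APOE4 (-0.06 to 0.11) and 0.06 for APP (-0.02 to 0.15). The genes most like it were Aldh1a3 and Adcy7 (r = 0.50 each), Ltbp1 and Rnf24 (0.49 each) and Smg6 (0.47). With genotype and sex means removed, Ltbp1, Aldh1a3 and Adcy7 stayed in the top 5, joined by Il1rap and Gm4544 (0.51 each).

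Il34, the ligand made by neurons, fell in E3/Trem2ko. Its lowest, median and highest levels were 36.3, 42.2 and 50.9 CPM in E3/Trem2ko, against 46.2, 59.9 and 66.0 CPM in E3. All 8 E3/Trem2ko mice lay below the E3 median, and 7 lay below the lowest E3 mouse. The log2 fold change of -0.45 (SE 0.109, 95% interval -0.67 to -0.23), by which Il34 fell by 26.8%, passed the test (adjusted p = 0.0216 by limma). That comparison called 1.65% of genes lower and 2.92% in either direction. The call was lost without the E3 mouse D3502 (-0.43, adjusted p = 0.0520) or without the E3/Trem2ko mouse D3887 (-0.42, adjusted p = 0.0643). Striatal markers moved with it: the 10 genes summed to a lowest, median and highest of 225, 268 and 468 CPM in E3/Trem2ko against 249, 383 and 2778 CPM in E3. Without the striatal libraries, 3 of which are E3, the value was -0.39 (adjusted p = 0.252 by limma). With the mean log2 level of the striatal markers as a covariate it was -0.39 (adjusted p = 0.0509 by limma). Microglial markers moved with it as well, with 5 of 15 called lower, the deleted Trem2 among them, and a median of -0.38. With the level of the markers other than Trem2 as a covariate the Il34 value was -0.23 (adjusted p = 0.431 by limma). The 8 neuronal markers had a median of -0.08. Oligodendrocyte markers summed to a lowest, median and highest of 1238, 2763 and 4874 CPM in E3/Trem2ko, against 679, 2050 and 3292 CPM in E3. Their part in the Il34 value was not tested.

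Elsewhere Il34 did not follow Trem2 in one direction. It had levels of 42.5, 54.3 and 80.9 CPM in APP/E4/Trem2ko, against 38.4, 52.7 and 61.7 CPM in APP/E4, a log2 difference of 0.13 (-0.03 to 0.29, adjusted p = 0.295). In APP/E3/Trem2ko it had 40.6, 50.8 and 64.4 CPM, against 47.3, 56.3 and 61.9 CPM in APP/E3 (-0.12, -0.29 to 0.04, adjusted p = 1). In E4/Trem2ko it had 36.6, 42.6 and 58.8 CPM, against 38.7, 52.3 and 58.8 CPM in E4 (-0.14, -0.38 to 0.09, adjusted p = 0.890). The groups of each of these pairs overlapped. The average over backgrounds was -0.15 (-0.25 to -0.05), with an adjusted p of 0.0560 by limma. It passed the threshold with TMM scaling, edgeR, DESeq2 or length and GC offsets, and was -0.098 (adjusted p = 0.621) without the striatal libraries.

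Among Trem2ko mice Il34 had higher means with APP than without. It was 51.5 ± 8.35 CPM in APP/E3/Trem2ko against 42.0 ± 4.74 CPM in E3/Trem2ko, with 12 of 14 mice above the E3/Trem2ko median and a log2 difference of 0.28 (0.09 to 0.48, adjusted p = 0.131). It was 55.7 ± 11.4 CPM in APP/E4/Trem2ko against 46.1 ± 8.63 CPM in E4/Trem2ko, with 15 of 16 mice above the E4/Trem2ko median and a log2 difference of 0.27 (0.08 to 0.45, adjusted p = 0.143). By sex, a split made after seeing the data, the APP/E4/Trem2ko and E4/Trem2ko mice differed by 0.037 in females (adjusted p = 0.939) and 0.49 in males (adjusted p = 0.126), where E4/Trem2ko averaged 52.8 CPM in females and 39.4 CPM in males. With intact Trem2 the APP differences were -0.04 in APOE3 and -0.01 in APOE4 mice. The difference between these APP effects by Trem2, 0.30 (0.10 to 0.50), had p = 0.0033 but an adjusted p of 0.231 by limma, so it did not pass, and 0.0071% of all genes did. None of the 4 Il34 comparisons of APP was called. Between isoforms the log2 differences ran from -0.19 to 0.12 and none was called.

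In order of level, from high to low, Il34 ran E3, APP/E3, APP/E4/Trem2ko, APP/E3/Trem2ko, E4, APP/E4, E4/Trem2ko and E3/Trem2ko, and each step between neighbours was smaller than the SD of either. Among the genes most like it were Map2k1, a MAP kinase kinase, and Crym, a thyroid hormone binding protein (r = 0.82 each), Galk2, a sugar kinase, and Cdh9, a cadherin (0.81 each). With genotype and sex means removed, Crym and Galk2 were among those that stayed in the top 5, joined by Ppp2r2b (0.81) and Hace1 (0.79). Il34 correlated with microglial markers (r = 0.66) more than with 8 neuronal markers (0.29), and negatively with oligodendrocyte markers (-0.52), across the 88 libraries.

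The balance of the ligands was set out as the log2 ratio of Csf1 to Il34. It averaged -0.81 in E3/Trem2ko against -1.27 in E3, a difference of 0.46 (exact permutation test, p = 0.0044, adjusted p = 0.0522 over 12 pairs). In Trem2ko mice the difference with APP was -0.25 for APP/E3/Trem2ko over E3/Trem2ko and -0.24 for APP/E4/Trem2ko over E4/Trem2ko (permutation tests, adjusted p = 0.179 each). These were the 3 pairs with an unadjusted p under 0.05, and none of the 12 passed adjustment.

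Genes that act next to the receptor were taken as lists by role. Of 19 measured receptor-proximal signalling proteins, 5 fell and none rose in Trem2ko averaged over backgrounds, with a median log2 change of -0.06 against 0.01 for all genes. Over all genes 2.91% were called lower and 5.79% in either direction. Among those that fell were Pik3cg, a leukocyte phosphoinositide kinase subunit (-0.37, adjusted p = 0.00011), Mapk3, a MAP kinase (-0.25, 0.0454), Vav1, a guanine exchange factor of blood cells (-0.19, 0.0116) and Gab2, a docking protein (-0.15, 0.0102). Of 10 negative regulators 2 fell, the phosphatases Ptpn6 (-0.33, adjusted p = 0.00155) and Inpp5d (-0.22, 0.0086). Both are known from blood cells and microglia, and the other 8 did not pass. Among 8 transcription factors of the Csf1r promoter and enhancer, 2 fell: Spi1 (-0.31, adjusted p = 0.000222) and Irf8 (-0.22, 0.0080), a factor needed for microglial identity. Irf8 also fell in APP/E4/Trem2ko relative to APP/E4 (-0.38, 0.0038). All of these p-values come from limma with Benjamini-Hochberg adjustment over all genes.

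Of 7 measured transcripts known to rise or be kept up by CSF1R signalling, 1 fell, beside 2.91% of all genes called lower. It was Ccnd1, which encodes cyclin D1 (-0.26, adjusted p = 0.0427 by limma). Among relatives of the receptor, 0 of 8 class III receptors and ligands were called by limma, edgeR or DESeq2, with 2 at an unadjusted p under 0.05 by limma, and 1 of 4 myeloid growth factor receptors, Csf3r (-0.25, adjusted p = 0.0235). Ptprz1, a further receptor for IL-34, was at -0.03 (adjusted p = 0.849). Without the keratin libraries 1 E4/Trem2ko mouse was left, so calls in that setting are not given. With the mean log2 level of the striatal markers as a covariate 2 signalling proteins and 1 transcription factor were called. With the microglial marker level as a covariate none was, and the Csf1r average was -0.08 (adjusted p = 0.123).

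**Figure D5:**
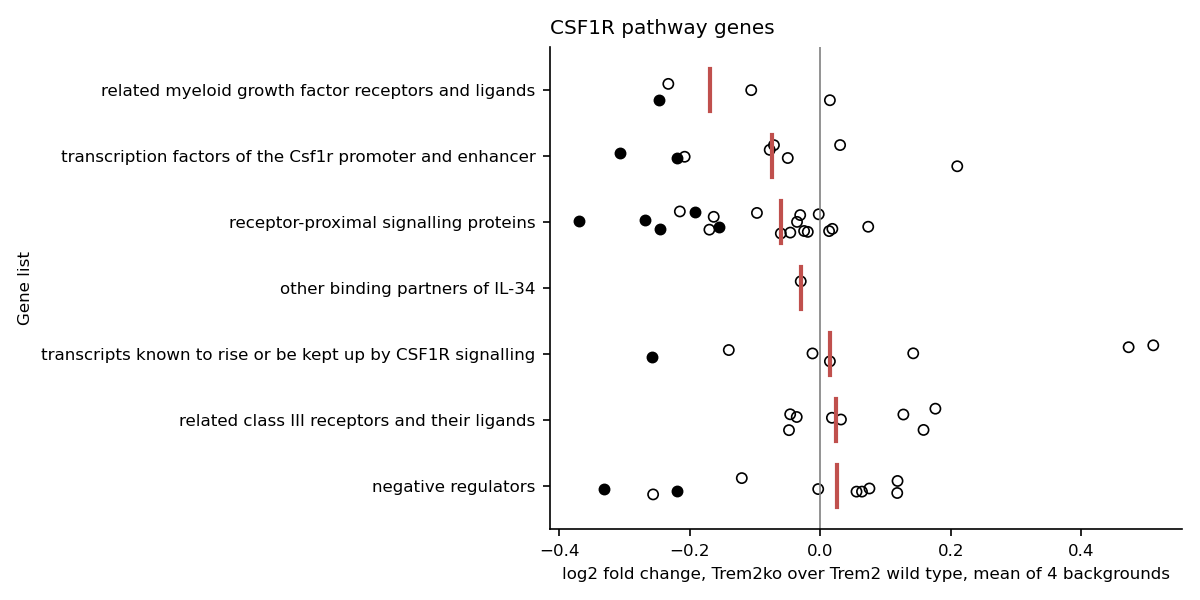
Log2 fold change in Trem2ko relative to intact Trem2, averaged over 4 backgrounds (horizontal axis), of the genes of each CSF1R pathway list (rows). Filled points passed the adjusted threshold, and a red bar is the list median; 5 of 19 signalling proteins, 2 of 10 negative regulators and 2 of 8 transcription factors were lower and none was higher.

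With APOE4, averaged over backgrounds, the same lists held calls in both directions. Of the signalling proteins, by limma, 2 rose, Pik3cg (0.28, adjusted p = 0.0004 by limma) and Gab2 (0.18), and 6 fell, Tyrobp (-0.54), Mapk3 (-0.20), Pik3r1 (-0.18), Grb2 (-0.15), Pik3cd (-0.08) and Akt1 (-0.07). The falls of Mapk3, Pik3cd and Akt1 were not called by edgeR, and Akt1 was at 0.02 with length and GC offsets. The split depended on the method, with 3 higher and 3 lower by edgeR, 4 and 3 by DESeq2 and with TMM scaling, and 4 and 5 with the offsets. Pik3cg and Gab2 thus had opposite signs in the 2 averages, as did Csf1r. In APP/E4 relative to APP/E3, Pik3cg was 0.31 higher (adjusted p = 0.0228), and in APP/E4/Trem2ko relative to APP/E4 it fell by 0.39 on the log2 scale (adjusted p = 0.0103). Of the negative regulators Spry2, an inhibitor of receptor tyrosine kinase signalling, rose (0.24, adjusted p = 0.0002), as did Cbl (0.24), while Cblb (-0.17) and Socs1 (-0.21) fell, Socs1 not by edgeR (adjusted p = 0.0504). Of the transcription factors limma called Cebpb lower (-0.29), and edgeR called none lower and 2 higher. Of the 7 transcripts known to rise or be kept up by CSF1R signalling 3 fell: Csf2ra (-0.51), Jun (-0.37) and Myc (-0.16). In bulk tissue the cells that these came from cannot be told, and CSF1R signalling was not measured. Pdgfa (0.17) and Pdgfrb (0.14) rose among the class III receptors and ligands. These counts stand beside 12.6% of all genes called higher and 27.8% called lower by limma, a split that edgeR put at 2874 and 2845 genes. Without the keratin libraries 1 E4/Trem2ko and 2 E4 mice were left for this average, so calls in that setting are not given. With APP, averaged over backgrounds, limma called a single gene of these lists, Sla, a Src-like adaptor that restrains receptor signalling (0.38, adjusted p = 0.0339 by limma). In that average 1.68% of all genes were called in either direction, so a single call in lists of this length is not particular to them.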

How the data were processed

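Libraries of frontal cortex mRNA from 88 mice were aligned by the authors to mm10 and counted with Subread/featureCounts 1.5.3, and the deposited table gives CPM (counts scaled to library size) per gene and mouse. The annotation, the filter on genes and the use of strand are not given in the sources used here. Values were whole multiples of 1 step in each library, so reads were recovered (100% whole within 0.01 of a read in every library), giving 41.3 to 95.5 M reads a mouse, median 49.8 M. Depth limits low genes more than the members, which held at least 17.3 CPM. Repeated rows (46) were dropped.

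The main test was limma 3.58.1 (trend and robust, R 4.3.3) on log2(CPM + 0.5) of the 14086 genes that averaged 1 CPM or more, with a mean per genotype and a term for sex over 88 mice, Benjamini-Hochberg adjustment over all genes and a threshold of 0.05. Fold changes are on that scale. The 20 comparisons were 12 pairs, 3 averages over 4 backgrounds, 4 interactions and sex. Ratios were tested by 2-sided permutation, exact where both groups had fewer than 10 mice and otherwise with 100000 resamples, adjusted over 12 pairs. Alternatives were edgeR 4.0.16 and DESeq2 1.42.0 on recovered reads, TMM scaling, pseudocounts of 0.1 and 1, no filter on low values, no sex term, only the groups compared, leaving out each mouse or the libraries with keratin (a sum of at least 1 CPM), transthyretin (100 CPM) or albumin (50 CPM), striatal or microglial marker covariates, 2 surrogate variables (sva 3.50.0), and length and GC offsets. The fit was tested on simulated data.

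The rule for the members names symbols and no values, but it and the gene lists were chosen with earlier results of these data known. Of the 5 genes most like each member and of the pathway genes, some are not reported here. Otherwise those 5 were named, and of each pathway list up to 4 with the smallest p among those called in the Trem2 average or in at least 2 pairs. Mapk3, Vav1, Gab2 and the genes named for APOE and APP outside that rule were chosen after their values were seen. Mice are separate animals. Sequencing batch is not given in the labels.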

Additional observations from a re-analysis of the deposited data

Results flagged for a closer look

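No member was marked for a closer look by the tests run. The search for a lone extreme value left out the larger APP genotypes. In the 12 sets of 6 to 8 mice tested for a lone extreme value, the largest gap was 0.467 of the set's range, under the limit in each, and the smallest adjusted p among 12 interaction values was 0.231 (limma).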

How the results depend on the processing

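No paired analysis was possible because each mouse carries its own identifier and no number links mice of different genotypes. Under the other settings listed in the methods 859 of 873 values kept their side of the threshold, 8 lost it, 6 gained it and none with a call changed sign. Signs changed in 59 values with no call, and in 30 more under the settings chosen after seeing the data. Of all such changes 47 were in Csf1, 25 in Il34 and 17 in Csf1r. The main value largest in size among them was that of Csf1r in E3/Trem2ko over E3, at -0.18. The settings chosen after seeing the data (without libraries with a striatal sum of at least 1000 CPM, females only, males only) kept 165 of 174. A fit with a mean for each genotype and sex, also chosen after seeing the data, is outside that count.

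The adjusted p values here are from limma unless a tool is named. Csf1r in APP/E4/Trem2ko over APP/E4 was -0.29 with only these genotypes (adjusted p = 0.0705), -0.21 without keratin libraries (0.273) and -0.10 in males (0.628). Its Trem2 average was -0.22 without keratin libraries, with 1 E4/Trem2ko and 2 E4 mice left. That average was -0.081 with the microglial covariate (0.123), -0.18 without striatal libraries (0.0690) and -0.18 in males (0.274). Csf1r in APP/E4 over APP/E3 was 0.11 without keratin (0.546), 0.13 without striatal libraries (0.184) and 0.045 in males (0.799), and 0.15 to 0.22 on leaving out each mouse. The mice whose absence ended that call were D3645, D3930, D3562, D3569, D3641, D3755, E3177, E3200, E3203, E3356, E3777 and E3333 (adjusted p up to 0.0950). Its APOE average was 0.12 without keratin, with the same few mice left, 0.11 without striatal libraries (0.104) and 0.087 in males (0.345). In E4 over E3 it was 0.30 with the microglial covariate (0.00295), past the threshold.

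Il34 in E3/Trem2ko over E3 was -0.39 with the striatal covariate (0.0509), -0.23 with the microglial covariate (0.431), -0.39 without striatal libraries (0.252) and -0.33 in males (0.331), and -0.49 to -0.42 on leaving out each mouse. In APP/E4/Trem2ko over APP/E4 it was 0.22 with the microglial covariate (0.0122). Its Trem2 average passed the threshold at -0.16 with TMM (0.0379), -0.15 with length and GC offsets (0.0498), -0.15 with edgeR (0.0471) and -0.15 with DESeq2 (0.0376), and was -0.17 to -0.13 on leaving out each mouse, 18 of which each brought it past the threshold (D3930, D3599, D3601, D3700, E3203, E3356, E3475, E3830, E4132, E3451, E4127, D3866, D3936, D3833, E3679, E3261, E3266 and E3445).

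Csf1r relative to the microglial markers was -0.10 (adjusted p = 0.0906, permutation test) by the list's median and -0.19 (0.240, exact permutation) without keratin libraries in APP/E4/Trem2ko over APP/E4. It was 0.079 (0.296) and 0.17 (0.0615, the same mice adjusted over 9 pairs) in E3/Trem2ko over E3, 0.13 (0.0739) and 0.18 (0.0912) in APP/E4 over APP/E3, and 0.24 (0.0906) and 0.31 (0.130) in E4 over E3. Of the 5 genes most like Csf1 and of the 5 most like Il34, 3 were kept with genotype and sex means removed and 3 by Spearman's rho. The cause of these changes was not tested. The E4 group, with 6 mice of which 2 are male, gives the widest intervals.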
